A study of Mus musculus with 36 samples.

Results

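The last 4 h of the light phase were examined in wild-type (WT) mouse liver, by setting Zeitgeber time (ZT, hours after lights on) 12 against ZT 8. The arrays were chosen by genotype and time in the sample titles, which gave 6 of the 36 arrays of the series, 3 at each time. All mice were C57BL/6, kept in 12 h of light and 12 h of dark, and livers were flash frozen. The other arrays held WT livers at the remaining times and livers of TB mice, which carry lung tumours in the study's adenocarcinoma model and whose alleles are not analysed here. Mouse age is not given in the sources used here, and the labels do not say that each array is another animal, so the p-values rest on the spread between samples that may partly be technical replicates.

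In liver, as in other tissues, the activators Clock and Arntl (Bmal1) drive their own repressors, the Per and Cry genes, through E-box sequences, and Nr1d1 (REV-ERB alpha) represses Arntl in a second loop. Lights off is when mice wake and begin to feed, and corticosterone rises towards it. Liver at this hour therefore receives signals from its own clock, from the adrenal and soon from food.

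RNA was measured as probe set intensities on Affymetrix arrays and is given as log2(intensity + 16), so that a difference of 1 is a doubling for genes well above 16 and an understated change for lower ones. A total of 22180 genes were tested. Array medians were 37.5 to 43.3 intensity units in the 6 arrays, and 23.0% of all values in the series lay under 16. Correlations over genes were 0.979 to 0.989 between the ZT 8 arrays and 0.929 to 0.982 between the ZT 12 arrays.

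WT ZT 12 replicate 3 stood apart through skeletal muscle RNA. Ttn, titin of the sarcomere, was at 5.35, 5.50 and 5.50 in the ZT 8 arrays and at 5.42, 5.33 and 16.77 at ZT 12. Ckm, muscle creatine kinase, was at 6.24, 6.55 and 6.45 against 6.07, 5.87 and 16.74. Of 24 measured muscle genes, 23 were highest of all 36 arrays in this replicate, and their summed intensity was 322563 there against 1237 to 2210 in the 30 arrays of the other groups. The median difference of the muscle list from ZT 8 to ZT 12 was 2.02 with this array and -0.09 without it, and none of its genes passed the test in either case. Summed adipocyte markers (2285 against 349 to 550 in the other 5 arrays) and stellate cell and fibroblast markers (6520 against 2430 to 3691) were also highest in it. Calls, most list medians and most of the main gene differences are therefore given with and without this array. The part of these other cells in the liver genes' values was not tested.

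The summed signal of hepatocyte markers was similar in all 6 arrays. Alb, serum albumin, was at 13.66, 13.60 and 13.61 at ZT 8 and at 13.60, 13.55 and 13.47 at ZT 12. The summed intensity of 12 hepatocyte markers ran from 64286, in the array with muscle RNA, to 68340. Of the 12, 4 lay wholly below at ZT 12 and 1 wholly above, beside 6.36% and 3.56% of all genes. Without that array 4 and 3 did, beside 15.3% and 8.75%. The median difference of these markers was -0.03 with that array and -0.003 without it. In bulk tissue, fewer cells of a type and less RNA per cell cannot be told apart. WT ZT 12 replicate 1 had the highest acute phase score of the 6 arrays, and its Kupffer cell markers summed to 2934 against 1009 to 2085 in the others. A further division ran through the whole series. In the probe sets without a gene symbol, each group's mean was subtracted and the first component taken. It held 28.6% of the variance left within groups, and 12 arrays differed from the other 24 along it. WT ZT 8 replicate 2 and WT ZT 12 replicate 3 were in the smaller set.

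To show the sequences through which these repressors are known to be driven, the 300 bases around the start site of 4 clock genes are given here, read from the RefSeq promoter table (build GRCm38.p6, 250 bases before and 50 after the start). Capitals mark the E-box CACGTG, which reads the same on both strands.
Cry1 (chr10:85185005-85185304, reverse strand): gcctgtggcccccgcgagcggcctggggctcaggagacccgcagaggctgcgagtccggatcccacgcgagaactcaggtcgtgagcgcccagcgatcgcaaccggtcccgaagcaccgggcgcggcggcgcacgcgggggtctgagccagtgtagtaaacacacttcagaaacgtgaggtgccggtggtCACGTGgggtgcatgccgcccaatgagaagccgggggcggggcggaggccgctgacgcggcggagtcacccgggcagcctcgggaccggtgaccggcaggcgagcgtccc
Per1 (chr11:69098699-69098998, forward strand): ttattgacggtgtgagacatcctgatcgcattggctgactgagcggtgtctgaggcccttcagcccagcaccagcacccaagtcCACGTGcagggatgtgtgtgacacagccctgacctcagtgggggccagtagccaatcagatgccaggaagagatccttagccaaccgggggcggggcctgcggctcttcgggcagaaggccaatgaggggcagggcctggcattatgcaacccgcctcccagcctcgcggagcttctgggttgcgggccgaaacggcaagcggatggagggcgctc
Ciart (chr3:95882179-95882478, reverse strand): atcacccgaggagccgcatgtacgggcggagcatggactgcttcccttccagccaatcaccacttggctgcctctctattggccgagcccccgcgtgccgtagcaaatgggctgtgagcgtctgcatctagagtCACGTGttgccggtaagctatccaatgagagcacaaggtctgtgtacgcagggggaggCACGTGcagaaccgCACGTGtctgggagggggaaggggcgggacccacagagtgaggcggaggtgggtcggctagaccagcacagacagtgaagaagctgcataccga
Bhlhe41 (chr6:145865371-145865670, reverse strand): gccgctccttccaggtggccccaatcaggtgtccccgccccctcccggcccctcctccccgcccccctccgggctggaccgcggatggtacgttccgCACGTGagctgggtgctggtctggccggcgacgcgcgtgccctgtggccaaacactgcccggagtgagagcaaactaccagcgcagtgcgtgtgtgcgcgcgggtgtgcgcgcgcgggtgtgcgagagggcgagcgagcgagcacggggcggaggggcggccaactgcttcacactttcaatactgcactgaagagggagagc
Ciart holds 3 E-boxes in this window and the others 1 each. Promoters of 16 of the measured clock genes were in the table, 21 in all, and 6 of these, from 5 genes, held an E-box; the remaining gene of the 5 was Tef. Over all 32851 promoters of the same length the share was 7.15%. The D-box core TTATGTA, searched on both strands, was in 1 clock promoter, that of Per3, and in 2.63% of all. These matches describe letters and not binding.

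Between ZT 8 and ZT 12, 7 of 22180 genes (0.0316%) passed an adjusted p of 0.05 with limma (Benjamini-Hochberg over all genes). Zbtb16, Ppp1r3b, Cry1 and Tns1 rose (4 genes, 0.018%), and Cldn1, Nav2 and Dixdc1 fell (3 genes, 0.0135%). The ZT 12 and ZT 8 arrays did not overlap in 2199 genes (9.91%), 789 of them higher (3.56%) and 1410 lower (6.36%). Without WT ZT 12 replicate 3 none passed by limma: the smallest adjusted p was 0.0518, 18 genes were under 0.1, and 1520 genes had an unadjusted p under 0.05, against 1466 with all arrays (6.61% of genes). The count also went to 0 without WT ZT 8 replicate 1 or without WT ZT 8 replicate 3, to 4 without WT ZT 12 replicate 1 and to 16 without WT ZT 12 replicate 2. The 7 genes are described after their values were seen, since no gene met the rule that asked for a call in both fits.

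Zbtb16 encodes PLZF, a zinc finger transcriptional repressor. It was at 6.54, 6.75 and 6.63 in the ZT 8 arrays and at 8.64, 8.43 and 9.24 in the ZT 12 arrays. All ZT 12 values lay above all ZT 8 values, and the array with muscle RNA was the highest. The difference was 2.13 ± 0.336 (SE, n = 3 against 3), 4.37-fold, with limma's adjusted p = 0.00684, and without that array it was 1.89 with adjusted p = 0.0518. Over the WT day Zbtb16 averaged 7.15, 6.93, 6.64, 8.77, 7.85 and 7.14 from ZT 0 to ZT 20, so that ZT 12 was the highest time and ZT 8 the lowest.

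Ppp1r3b targets protein phosphatase 1 to glycogen and thereby favours glycogen synthesis in liver. It was at 8.21, 9.06 and 8.46 at ZT 8 and at 10.63, 10.14 and 10.37 at ZT 12. The groups did not overlap, and the array with muscle RNA lay between the other ZT 12 arrays. The difference was 1.81 ± 0.332, 3.49-fold (limma, adjusted p = 0.0328), and 1.81 with adjusted p = 0.0792 without that array. The WT means were lowest at ZT 8, 8.58, and highest at ZT 16, 11.01.

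Cry1, a repressor of Clock and Arntl, was at 5.97, 6.08 and 5.64 at ZT 8 and at 6.83, 6.88 and 6.84 at ZT 12. The 3 ZT 12 arrays were nearly alike (SD 0.03) and all above the ZT 8 arrays. The difference was 0.95 ± 0.179, 1.94-fold (limma, adjusted p = 0.0363), and 0.96 with adjusted p = 0.0827 without the array. Cry1 had its lowest WT mean of the day at ZT 8, and the means were 6.85 at ZT 12, 7.56 at ZT 16 and 8.09 at ZT 20. Tns1, the focal adhesion protein tensin 1, was at 8.49, 8.54 and 8.59 against 9.11, 9.07 and 9.37, without overlap. Its difference was 0.64 ± 0.122 (limma, adjusted p = 0.0368), and 0.55 with adjusted p = 0.172 without the array, where its value was the highest of the 6.

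Cldn1, a claudin of tight junctions, was at 9.23, 8.91 and 9.16 at ZT 8 and fell to 8.31, 7.90 and 7.47 at ZT 12. No values overlapped, and the array with muscle RNA was the lowest. The difference was -1.21 ± 0.181, a 2.31-fold fall (limma, adjusted p = 0.00551), and -0.997 with adjusted p = 0.0518 without that array. ZT 12 was the lowest of the 6 WT times for Cldn1, with a mean of 7.89 against 9.10 to 10.07 at the others. Nav2, a neuron navigator protein that binds the cytoskeleton, was at 7.90, 7.79 and 8.21 against 6.93, 7.39 and 6.91. Dixdc1, a DIX domain protein of the Wnt pathway, was at 6.62, 6.18 and 6.62 against 5.76, 5.75 and 5.63. Both pairs of groups were apart: Nav2 fell by 0.89 (limma, adjusted p = 0.0222) and Dixdc1 fell by 0.76 (adjusted p = 0.0328). Without the array the differences were -0.81 (limma, adjusted p = 0.0827) and -0.72 (adjusted p = 0.0903).

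**Figure D1:**
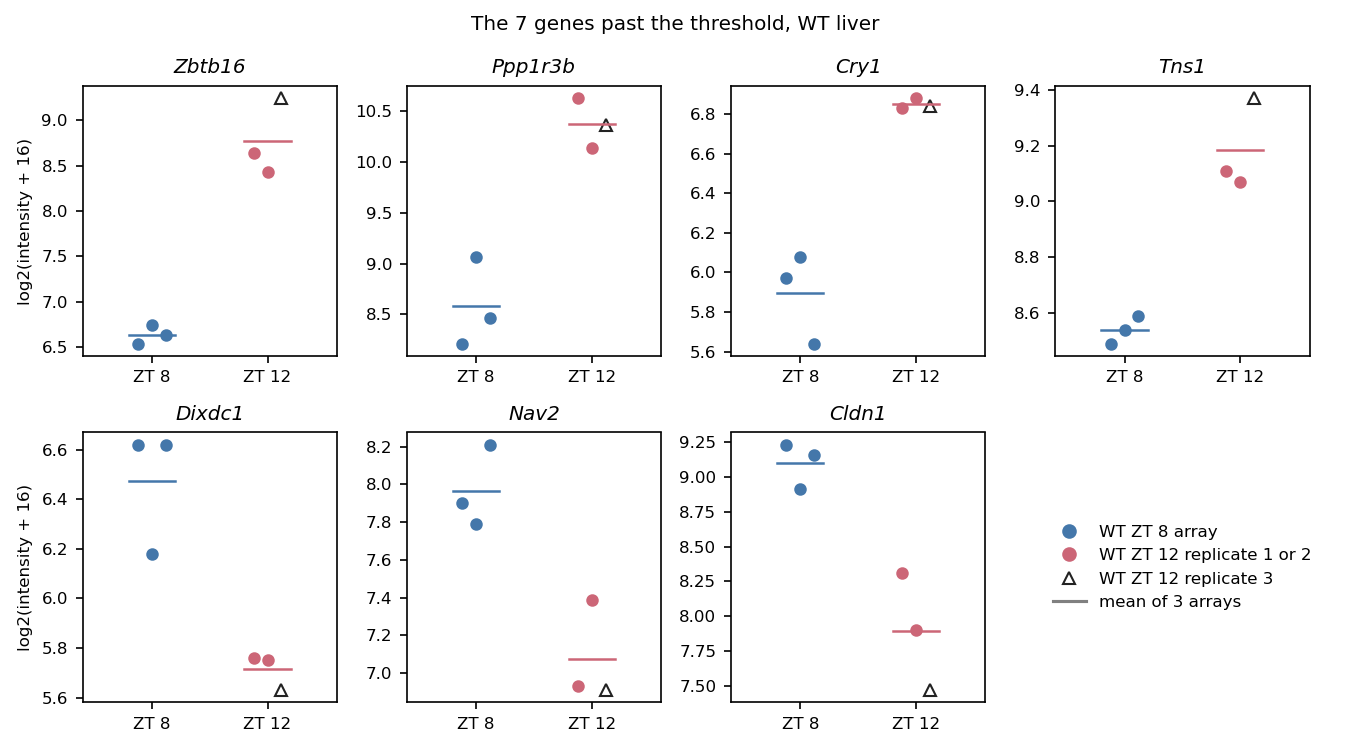
Log2(intensity + 16) of the 7 genes that passed the test, in the 3 WT arrays at ZT 8 and the 3 at ZT 12; points are arrays, the triangle is the ZT 12 array with muscle RNA, and lines mark group means. In each gene the ZT 12 points lie wholly above or wholly below the ZT 8 points, as in Cry1 with 6.83 to 6.88 against 5.64 to 6.08.

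Within the larger of the array sets, which leaves out 1 array at each time, the differences were 1.95 for Zbtb16, 2.05 for Ppp1r3b, 1.05 for Cry1, 0.55 for Tns1, -1.09 for Cldn1, -0.90 for Nav2 and -0.87 for Dixdc1. Only Cry1 (limma, adjusted p = 0.0233) and Dixdc1 (adjusted p = 0.0274) kept their call there, among 5 genes in all. The smaller set holds 1 array at each time and allows no test. With the set as a block, 36 genes passed, 21 higher and 15 lower, and the 7 genes were among them.

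The clock genes were next taken by role. Of 17 measured, 1 rose (Cry1) and none fell, beside 0.018% and 0.0135% of all genes. The others did not pass the test, and without the array with muscle RNA none passed. Among the activators, Arntl was at 5.40, 5.54 and 5.49 at ZT 8 and at 6.39, 5.36 and 5.85 at ZT 12, so that the groups overlapped. ZT 8 and ZT 12 were the lowest times of its WT day, with means of 5.48 and 5.87 against 7.76 to 8.83 elsewhere. Clock differed by -0.05 and Npas2, its paralogue, by 0.17, and the sign for Clock turned to 0.02 without the array with muscle RNA.

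The repressors other than Cry1 showed higher values in part. Per1, whose promoter is printed above, was at 8.01, 8.04 and 8.32 at ZT 8 and at 8.74, 8.73 and 8.79 at ZT 12. Ciart, or CHRONO, which binds and represses the activator pair, was at 7.07, 7.22 and 7.56 against 7.57, 7.96 and 8.12. Neither overlapped, but neither passed the test: the differences were 0.63 ± 0.337 for Per1 (limma, adjusted p = 0.806) and 0.60 ± 0.238 for Ciart (adjusted p = 0.575). Without the array they were 0.61 and 0.49. Per3 differed by 0.11 and Cry2 by -0.20. Cry1, Per1 and Ciart were thus 3 of 5 measured repressors whose ZT 12 arrays lay wholly above ZT 8, where 3.56% of all genes did so. Without the array the count was also 3 of 5, beside 8.75% of all genes. Per1 had its highest WT mean at ZT 12, 8.75, while Cry1 was highest at ZT 20.

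In the second loop, Nr1d1 was at 10.07, 9.47 and 10.27 at ZT 8 and at 8.15, 8.63 and 8.82 at ZT 12. The ZT 12 values were all lower, by -1.40 ± 0.373, a 2.64-fold difference that did not pass (limma, adjusted p = 0.218; 0.284 without the array). Its WT mean was highest at ZT 8, 9.94, and lowest at ZT 20, 5.18. Bhlhe41, or DEC2, a repressor that binds E-boxes, was at 7.70, 6.76 and 8.12 against 5.59, 6.26 and 7.16. The groups overlapped only through the array with muscle RNA: the difference was -1.19 (limma, adjusted p = 0.221) with it and -1.60 (adjusted p = 0.0537) without it. ZT 8 was its highest WT time, with a mean of 7.52. Nr1d2 differed by -0.19, Rora by -0.24 and Bhlhe40 by 0.12. Rora and Nr1d1 were the 2 of 5 members of this loop whose arrays at ZT 12 lay wholly below those at ZT 8, where 6.36% of all genes did so. Without the array with muscle RNA 4 of 5 did, beside 15.3% of all genes.

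None of the 4 measured factors that bind the D-box passed the test. Only Nfil3 lay wholly above at ZT 12 and none lay wholly below, beside 3.56% and 6.36% of all genes. Nfil3, or E4BP4, the D-box repressor, was at 6.56, 6.44 and 6.60 at ZT 8 and at 7.79, 7.04 and 6.86 at ZT 12. Its lowest ZT 12 value was in the array with muscle RNA. The difference was 0.70 ± 0.169 (limma, adjusted p = 0.143) and 0.89 without that array (adjusted p = 0.0537). Dbp, a D-box activator, was at 10.40, 10.03 and 10.67 against 9.64, 10.39 and 9.62, overlapping. Its difference was -0.48, or -0.35 without that array. Tef and Hlf, its relatives, differed by 0.07 and -0.05, and both signs turned in other settings.

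**Figure D2:**
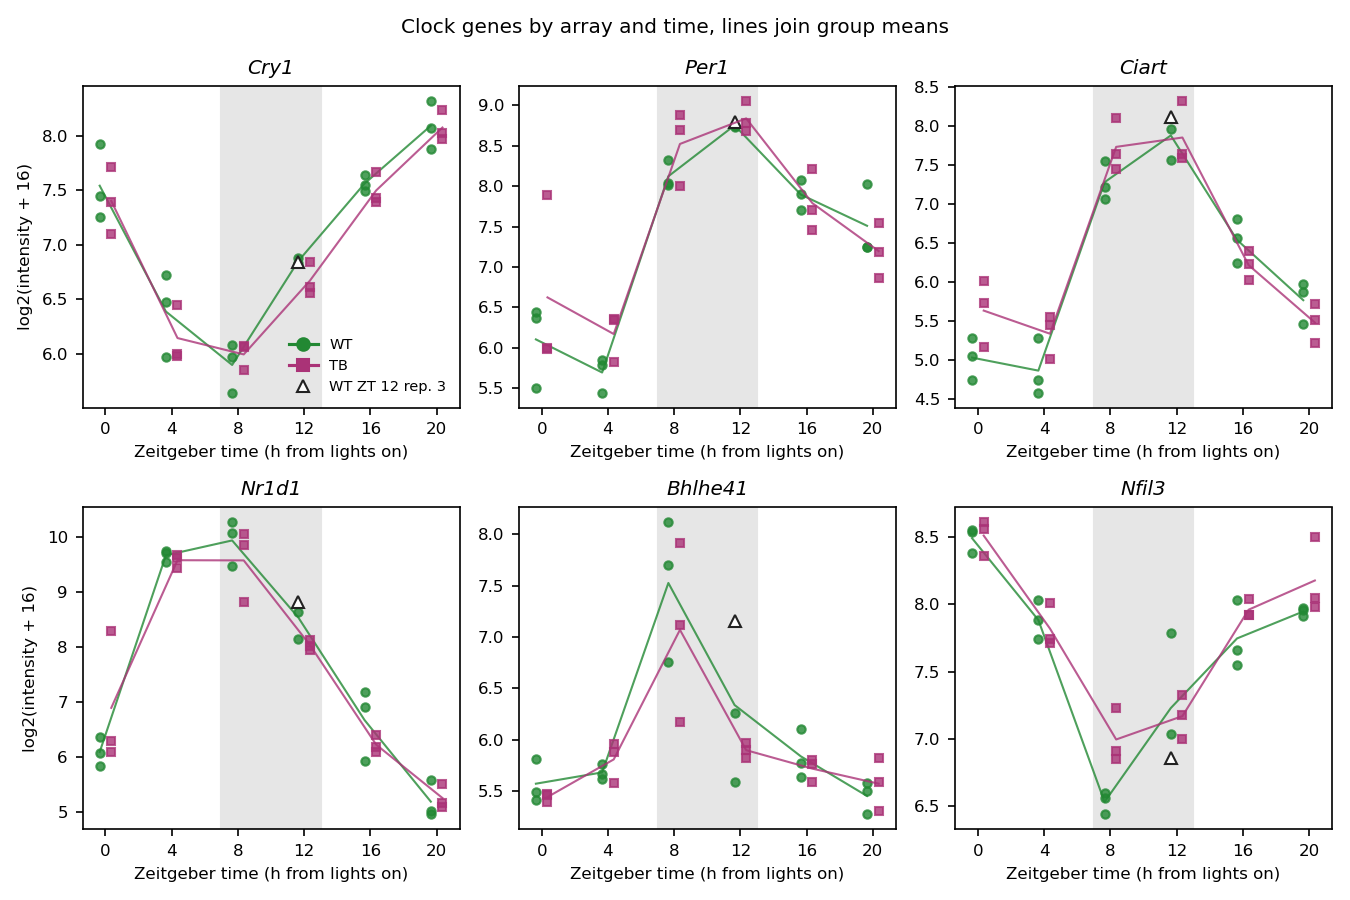
Log2(intensity + 16) of 6 clock genes against ZT in hours, each point 1 array, WT and TB in separate colours, lines through the group means, a triangle for the array with muscle RNA and a grey band over ZT 8 to 12. Across the band the WT mean of Cry1 goes from 5.90 to 6.85 and that of Nr1d1 from 9.94 to 8.53.

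Clock output genes of liver divided by direction. Of 23 measured, none passed the test with or without the array. A total of 15 were higher in the mean in either fit, beside 41.9% of all genes with the array and 42.9% without it. With it 8 lay wholly above at ZT 12 and 4 wholly below, beside 3.56% and 6.36% of all genes. Without the array these were 10 and 4, beside 8.75% and 15.3% of all genes. The list's median was 0.17 with the array and 0.18 without it. Lpin1, a phosphatidate phosphatase and transcriptional coregulator of fat metabolism, was at 9.11, 9.19 and 9.53 against 10.75, 11.06 and 10.67 (difference 1.55 ± 0.335; limma, adjusted p = 0.0782). Tfrc, the transferrin receptor, was at 5.99, 5.97 and 5.93 against 7.46, 6.62 and 6.88 (1.03 ± 0.213, adjusted p = 0.0572 by limma). Without the array these differences were 1.63 (limma, adjusted p = 0.142) and 1.08 (adjusted p = 0.111). Lpin1 had its highest WT mean of the day at ZT 12, 10.83. Nampt, the NAD salvage enzyme, was at 7.88, 8.24 and 7.94 against 9.12, 8.96 and 8.98, and Usp2, a deubiquitinase, at 8.93, 8.68 and 9.07 against 9.70, 9.71 and 10.09. Among those wholly below were Insig2, which retains SREBP in the endoplasmic reticulum (8.51, 8.52 and 9.06 against 8.00, 8.07 and 8.00), and Elovl3, a fatty acid elongase (10.65, 10.53 and 10.70 against 7.98, 9.89 and 9.95). Nampt, Usp2, Insig2 and Elovl3 were named after their values were seen.

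Glucocorticoid-responsive genes lay higher at ZT 12 in most of the list. Of 21 measured, 1 rose (Zbtb16) and none fell, beside 0.018% and 0.0135% of all genes. Without the array with muscle RNA none passed. In the mean 17 were higher with either set of arrays, against 41.9% of all genes with all arrays. The list's median difference was 0.61 with all arrays and 0.47 without that array, beside -0.03 over all genes in both. A total of 12 lay wholly above at ZT 12 and 1, Tdo2, wholly below, beside 3.56% and 6.36% of all genes. Without the array 15 lay wholly above and 2 wholly below, where 8.75% and 15.3% of all genes did. Leaving out WT ZT 12 replicate 1, the array with high acute phase genes, left 13 wholly above, where 7.81% of all genes were, and a median of 0.49. Lcn2, Mt1 and Mt2 belong to this list and to the acute phase list. Among the genes wholly above, Per1 is also a clock repressor, Cdkn1a a clock output gene and G6pc a gluconeogenesis gene. The counts of these lists therefore share members.

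Tsc22d3 (GILZ), an anti-inflammatory target of the glucocorticoid receptor, was at 7.16, 6.76 and 7.35 at ZT 8 and at 8.71, 8.24 and 8.15 at ZT 12. Fkbp5, a cochaperone that dampens the receptor, was at 6.62, 6.23 and 6.57 against 8.02, 7.63 and 7.55. Both were clear of overlap, with differences of 1.27 ± 0.331 (limma, adjusted p = 0.193) and 1.26 ± 0.356 (adjusted p = 0.277), and of 1.38 and 1.35 without the array. Mt2, a metal-binding metallothionein that is also an acute phase gene, was at 7.39, 8.02 and 7.79 against 12.60, 10.02 and 8.38, with its spread at ZT 12 set by replicate 1. Klf9, Gadd45b and Hsd11b1, the enzyme that regenerates corticosterone, had lower means at ZT 12, by -0.15, -0.21 and -0.15, and their groups overlapped. Nr3c1, the receptor itself, was at 8.67, 8.62 and 8.66 against 8.81, 8.78 and 8.80, a difference of 0.15 (limma, adjusted p = 0.927). The list score, the mean deviation of its genes from their means over the 6 arrays, was -0.45, -0.40 and -0.29 at ZT 8 and 0.76, 0.27 and 0.11 at ZT 12.

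Among genes of glucose and glycogen handling, only Ppp1r3b passed. In gluconeogenesis, none of 14 passed. With or without the array 13 were higher in the mean, beside 41.9% and 42.9% of all genes. With it 4 lay wholly above, beside 3.56% of all genes: G6pc, Slc37a4, Sik1 and Foxo1. Without the array 5 did, beside 8.75%. G6pc, glucose-6-phosphatase, was at 10.41, 10.28 and 10.71 against 10.93, 11.92 and 11.29, and Slc37a4, the transporter that feeds it, at 9.56, 9.31 and 9.61 against 10.16, 10.12 and 9.89. The list's median was 0.18 with the array, 0.22 without it and 0.09 after quantile normalization. Of 19 glycolysis and glycogen genes, Ppp1r3b alone rose, where 0.018% of all genes did, and without the array none passed. In the mean 12 were higher, or 11 without the array, beside 41.9% and 42.9% of all genes. The median was 0.04, or 0.05 without the array. Pfkfb3, which makes the activator of phosphofructokinase, was at 6.17, 5.98 and 6.31 against 6.95, 6.83 and 6.63. Its difference was 0.65 (limma, adjusted p = 0.114), and 0.74 without the array (adjusted p = 0.127). None of 23 insulin and nutrient signalling genes passed, 4 of them lay wholly above and 3 wholly below, beside 3.56% and 6.36% of all genes. Without the array 7 and 3 did, beside 8.75% and 15.3%. Their median was 0.02 with the array and 0.05 without it.

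**Figure D3:**
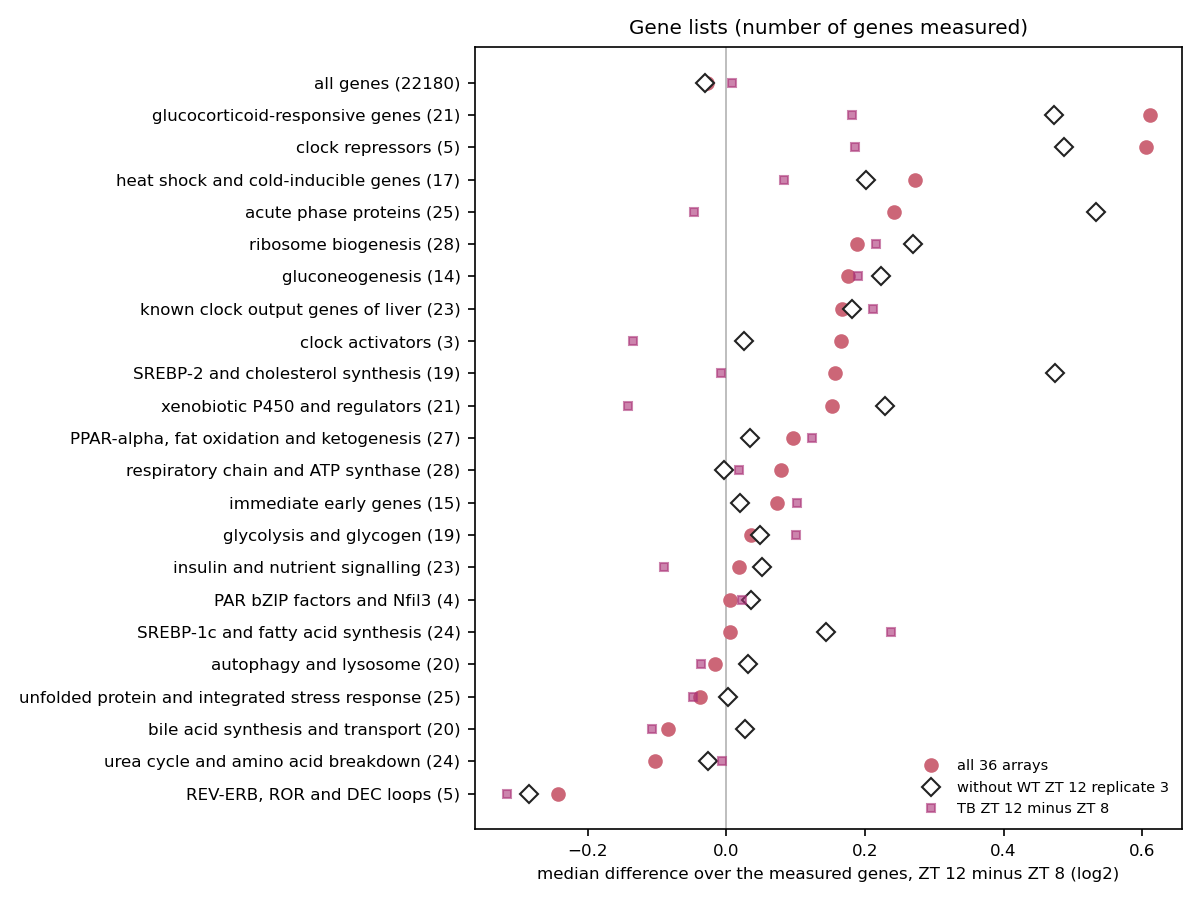
Median difference ZT 12 minus ZT 8 (log2) of each gene list, for WT with all arrays, WT without the array with muscle RNA, and TB. The glucocorticoid-responsive list lies at 0.61 and 0.47 in WT and at 0.18 in TB, and the acute phase list moves from 0.24 to 0.53 when the array is left out.

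In lipid metabolism no gene passed the test. Of 24 genes of fatty acid synthesis, 12 were higher in the mean with the array and 17 without it, beside 41.9% and 42.9% of all genes. With the array 4 lay wholly above, beside 3.56% of all genes: Lpin1, Thrsp, Elovl6 and Acacb. Without the array 6 lay wholly above and 2 wholly below, beside 8.75% and 15.3% of all genes. Thrsp (Spot 14), a regulator of lipogenesis, was at 10.43, 10.93 and 11.04 against 11.86, 11.91 and 11.73. The median of this list was 0.01 with the array and 0.14 without it, and the first turned in sign after quantile normalization. The 19 genes of cholesterol synthesis had a median of 0.16 with the array, 0.47 without it and -0.03 without WT ZT 12 replicate 1. Their score was -0.17, -0.26 and 0.22 at ZT 8 and 0.43, 0.21 and -0.44 at ZT 12, so the groups overlapped and the array with muscle RNA was the lowest of the 6. Of 27 PPAR-alpha and fat oxidation genes, none lay wholly above and 1 wholly below, beside 3.56% and 6.36% of all genes. Without the array with muscle RNA their counts were the same, beside 8.75% and 15.3% of all genes. Without WT ZT 12 replicate 1 instead, 9 lay wholly above, beside 7.81% of all genes. Their median was 0.10 with all arrays, 0.03 without the array with muscle RNA, 0.28 without replicate 1 and -0.18 without replicate 2. Plin2, the coat protein of lipid droplets, differed by -0.84 (limma, adjusted p = 0.433), with 10.52, 10.64 and 10.89 against 9.35, 10.60 and 9.57. Without the array with muscle RNA its difference was -0.71.

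None of 20 bile acid genes passed. With the array with muscle RNA 1 lay wholly above and 3 wholly below, beside 3.56% and 6.36% of all genes. Without it these were 3 and 3, beside 8.75% and 15.3%. The list's median was -0.08 with that array and 0.03 without it, so that its sign turned. Cyp7a1, the rate-limiting enzyme of bile acid synthesis, was at 10.02, 10.04 and 10.05 at ZT 8 and at 11.45, 11.58 and 10.94 at ZT 12, without overlap and with its highest WT mean of the day at ZT 12, 11.33. The difference was 1.29 ± 0.306 (limma, adjusted p = 0.126), and 1.48 without the array (adjusted p = 0.127). Hsd3b7, a later enzyme of the same pathway, was at 10.58, 10.30 and 10.63 against 9.60, 9.98 and 9.44, and Abcb11, the bile salt export pump, at 10.78, 10.72 and 10.72 against 10.19, 10.12 and 10.03. Their differences were -0.83 ± 0.192 (limma, adjusted p = 0.114) and -0.62 ± 0.194 (adjusted p = 0.374), or -0.71 and -0.58 without the array. Of 21 xenobiotic genes, 3 lay wholly above and 1 wholly below (3.56% and 6.36% of all genes), or 6 and 1 without the array (8.75% and 15.3%). Their median was 0.15 with the array and 0.23 without it. Alas1, which starts heme synthesis, was at 10.81, 10.70 and 10.89 against 11.93, 12.13 and 11.28.

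None of 24 urea cycle and amino acid breakdown genes passed. With the array, 8 lay wholly below and 1 wholly above, beside 6.36% and 3.56% of all genes, which also leaned to lower. Without it these were 8 and 3, beside 15.3% and 8.75%. The list's median was -0.10 with the array and -0.03 without it. Cbs, which condenses homocysteine with serine, was at 10.61, 10.60 and 10.39 against 10.06, 9.68 and 9.69, and Hal, histidine ammonia lyase, at 11.03, 11.13 and 11.04 against 10.68, 10.19 and 10.18. Their differences were -0.72 ± 0.175 (limma, adjusted p = 0.143) and -0.72 ± 0.213 (adjusted p = 0.314), or -0.66 and -0.63 without the array. Cps1, Hgd and Otc, also wholly below, differed by -0.11, -0.18 and -0.21, smaller differences than those of Cbs and Hal. Asl, which was wholly above, differed by 0.38. These last 4 genes were named after their values were seen.

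Chaperone and ribosome assembly genes were mostly higher in the mean without any call. Of 17 heat shock and cold-inducible genes, 16 were higher, 15 without the array, beside 41.9% and 42.9% of all genes. Their medians were 0.27 and 0.20. Hspa8, the constitutive HSC70, was at 11.33, 11.14 and 11.25 against 11.76, 11.64 and 11.63. Of 28 ribosome biogenesis genes, 22 were higher, 25 without the array, beside the same 41.9% and 42.9%, with medians of 0.19 and 0.27. Those wholly above were 4 with the array and 15 without it, where the share of all genes was 3.56% and 8.75%. Rrp12, a ribosome assembly factor, was at 6.82, 6.92 and 6.81 against 7.28, 7.39 and 7.19. Its difference was 0.44 (limma, adjusted p = 0.277), and 0.49 without the array. Myc, the factor that activates such genes, was the 1 member wholly below, where 6.36% of all genes were. It was at 7.70, 7.67 and 7.76 against 6.67, 6.72 and 6.06 (-1.22 ± 0.346, adjusted p = 0.277 by limma, or -1.01 without the array).

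The remaining lists gave no call. Of 25 acute phase genes, 16 were higher in the mean with the array and 23 without it, beside 41.9% and 42.9% of all genes. Their score was -0.22, -0.20 and -0.41 at ZT 8 and 1.52, -0.10 and -0.59 at ZT 12, so 1 ZT 12 array was high and the other two lay on either side of the ZT 8 values. Saa2, serum amyloid A2, was at 12.42 in that array and at 8.62 and 6.31 in the other ZT 12 arrays, against 6.48, 8.16 and 6.56 at ZT 8, and could share signal with its near copy Saa1. Without WT ZT 12 replicate 1 the list's median went from 0.24 to -0.20. The unfolded protein list of 25 genes had a median of -0.04 with the array with muscle RNA and 0.002 without it, so that its sign turned. In it 1 gene lay wholly below with all arrays, beside 6.36% of all genes, and 10 without WT ZT 12 replicate 1, beside 11.0%. Medians were -0.02 for 20 autophagy genes, with a sign that turned without the array (0.03) and after median centring, and 0.07 for 15 immediate early genes, or 0.02 without the array. The 28 respiratory chain genes had a median of 0.08 with the array and -0.003 without it. In the mean 23 were higher with it and 14 without it, beside 41.9% and 42.9% of all genes.

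**Figure D4:**
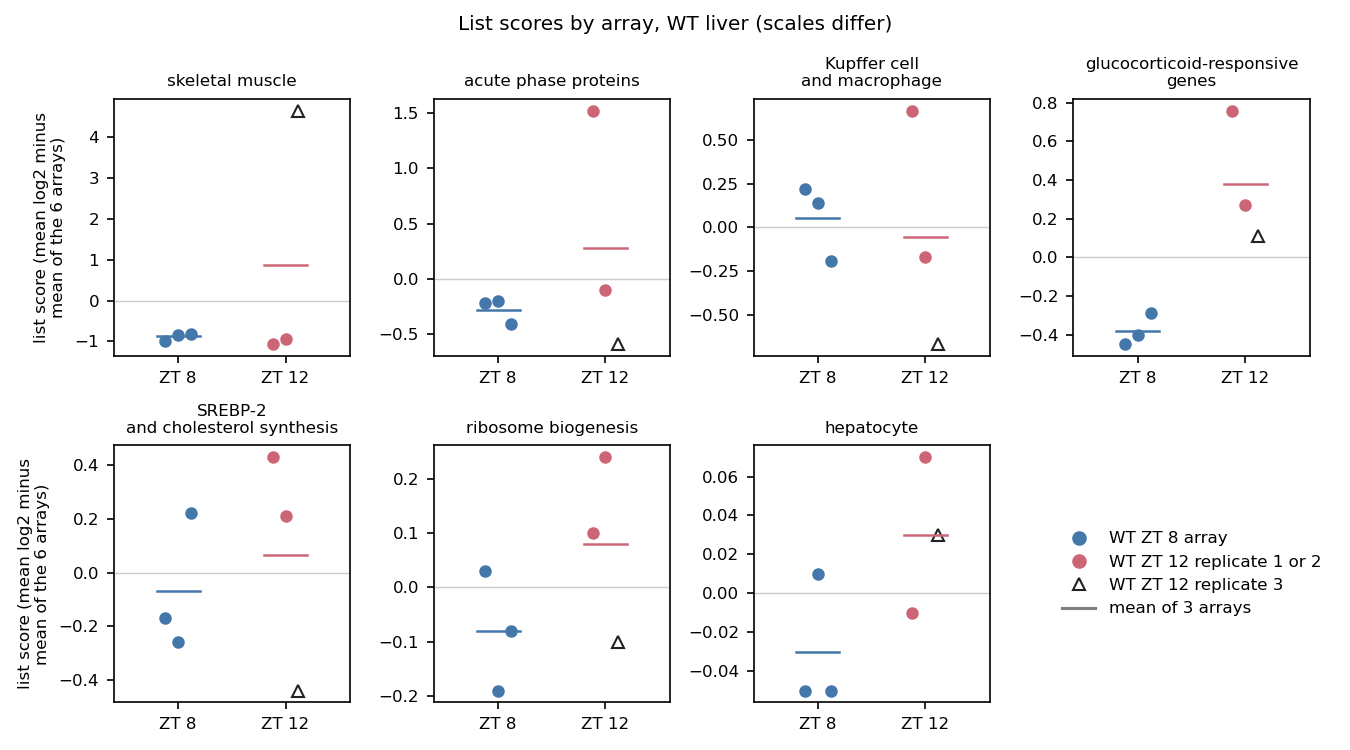
Score of 7 gene lists (mean deviation of log2 values from the mean over the 6 arrays) in each of the 3 WT arrays at ZT 8 and the 3 at ZT 12, where the triangle is the array with muscle RNA, lines are means and scales differ. The ZT 12 scores lie above ZT 8 for glucocorticoid-responsive genes, 0.11 to 0.76 against -0.45 to -0.29, and 1 ZT 12 array stands at 1.52 for acute phase genes.

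The 10 genes with the smallest p without the array, a set chosen by these values, were Cldn1, Scrn1, Jag2, B3galt1, Arhgef26, Tcim, Zbtb16, Bhlhe41, Nfil3 and C4a. B3galt1, a galactosyltransferase, was at 7.84, 7.14 and 7.64 at ZT 8 and at 9.55, 9.35 and 8.20 at ZT 12, the last in the array with muscle RNA. The difference was 1.50 with that array (limma, adjusted p = 0.126) and 1.91 without it (adjusted p = 0.0518). Arhgef26, a guanine nucleotide exchange factor, gave 1.06 and 1.38 in the same way. Jag2, a Notch ligand, was at 6.35, 6.59 and 6.07 against 5.37, 5.84 and 6.58, so that the groups overlapped only through the array, and the difference was -0.41 with it and -0.73 without it. C4a, a complement component, was at 6.31, 6.30 and 6.42 against 8.10, 8.12 and 7.32. It differed by 1.51 with the array (limma, adjusted p = 0.0782) and by 1.77 without it (adjusted p = 0.0554). Its value is uncertain because C4b is a near-identical copy that shares sequence with it.

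The same step in TB livers was set beside the WT step to see where they differed. In TB no gene passed (limma; 735 genes had an unadjusted p under 0.05, 3.31%). In the test of the WT step minus the TB step, no gene passed with or without the array (limma; smallest adjusted p = 1; 476 genes, 2.15%, at an unadjusted p under 0.05 with all arrays and 584, 2.63%, without the array). The 7 called genes were chosen on the WT values, so their TB values are a description. Zbtb16 was at 8.01, 6.88 and 7.85 in TB at ZT 8 and at 8.91, 8.20 and 8.78 at ZT 12, without overlap. Its WT step exceeded its TB step by 1.08, with a 95% interval per gene of 0.11 to 2.05. Without the array with muscle RNA it was 0.84 (-0.16 to 1.85), which includes 0. The TB steps had the sign of the WT steps in all 7, at 1.49 for Ppp1r3b, 0.68 for Cry1, 0.36 for Tns1, -0.51 for Cldn1, -0.16 for Nav2 and -0.42 for Dixdc1. Nav2 was at 6.97, 7.33 and 6.86 in TB at ZT 8 and at 6.86, 7.07 and 6.76 at ZT 12. Its TB values at ZT 8 all lay below its WT values at ZT 8. The difference of steps was -0.70 (-1.22 to -0.17) for Cldn1 and -0.74 (-1.18 to -0.29) for Nav2, and for Cry1 it was 0.28 (-0.24 to 0.80). Without the array it was -0.49 for Cldn1, with an interval that includes 0 and ends at 0.02, and -0.65 (-1.13 to -0.18) for Nav2. All had an adjusted p of 1 by limma.

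Nr1d1 and Bhlhe41 lay wholly lower at ZT 12 in TB, with differences of -1.54 and -1.17 against -1.40 and -1.19 in WT. The interval of the WT step minus the TB step was -0.94 to 1.22 for Nr1d1 and -0.94 to 0.90 for Bhlhe41, so that neither a larger nor a smaller step in WT can be told from these arrays. Cyp7a1 differed by 1.30 in TB, and Thrsp, at 10.28, 9.29 and 10.22 against 11.36, 11.89 and 11.59, by 1.68. At ZT 8 Myc was at 6.57, 6.63 and 6.37 in TB and at 7.70, 7.67 and 7.76 in WT. At ZT 12 it was at 7.52, 6.40 and 6.48 in TB and at 6.67, 6.72 and 6.06 in WT. Plin2 was also lower in TB at ZT 8, at 9.46, 9.45 and 10.01 against 10.52, 10.64 and 10.89 in WT. The genotypes were not tested against each other at ZT 8 here. The step of Myc was 0.28 in TB against -1.22 in WT, with an interval of -2.50 to -0.50 for the difference of steps. That of Plin2 was 0.30 against -0.84 (-1.93 to -0.35). Without the array these intervals were -2.34 to -0.25 and -1.84 to -0.17. Neither passed (limma, adjusted p = 1). The 5 smallest p for the difference of steps without the array belonged to Prdm12, Jag2, 4930444M15Rik, Tbca and Egf. Prdm12, a zinc finger protein, was at 6.06, 6.15 and 6.07 against 5.67, 5.48 and 6.01 in WT and at 5.73, 5.83 and 5.87 against 6.02, 6.18 and 5.96 in TB, so the steps ran opposite ways (difference of steps -0.62; limma, adjusted p = 1).

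**Figure D5:**
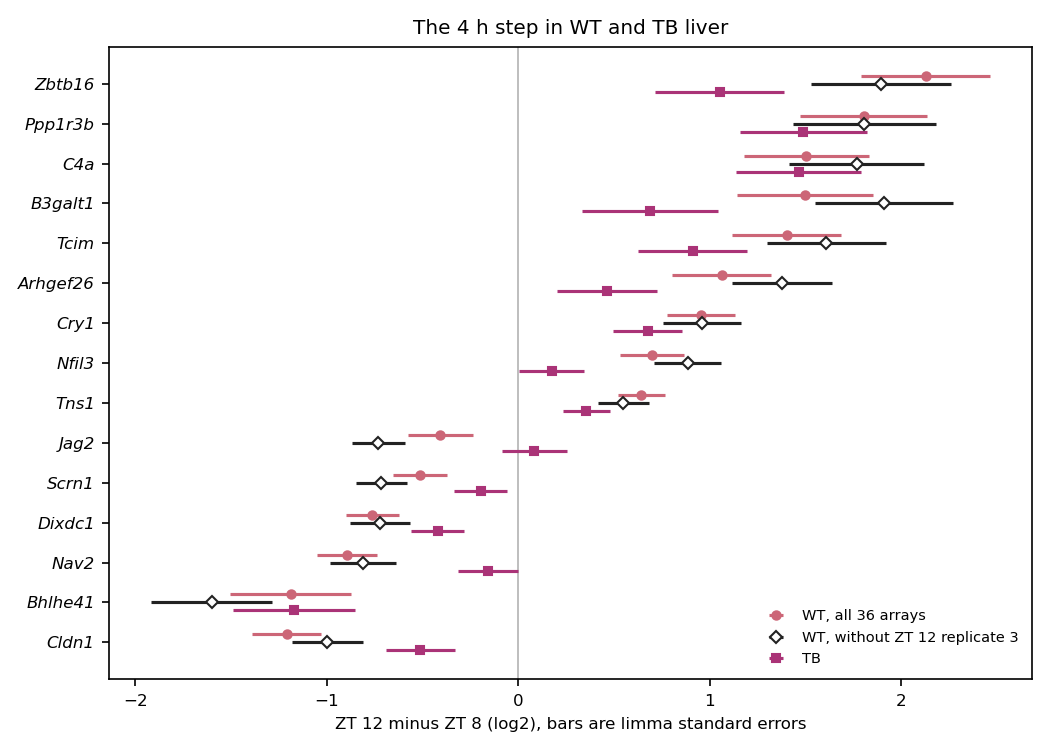
Difference ZT 12 minus ZT 8 (log2, bars are SE) of 15 genes in WT with all arrays, in WT without the array with muscle RNA, and in TB. Zbtb16 lies at 2.13, 1.89 and 1.05, and Cldn1 at -1.21, -0.997 and -0.51.

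The neighbouring steps of the WT day, which share arrays with this one, gave 57 genes past the threshold between ZT 4 and ZT 8 (0.257%) and 19 between ZT 12 and ZT 16 (0.0857%), or 8 (0.0361%) without the array, by limma.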

How the data were processed

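RNA of mouse liver was measured on 36 1-colour Affymetrix arrays (12 groups of genotype and time, 3 arrays each), and 6 arrays, WT at ZT 8 and ZT 12, are compared here. The deposited values are linear intensity, 1 per probe set and array. Per the submitters' processing notes, the authors used Affymetrix Expression Console 1.1.1 and PLIER 2.0; how these were set and how arrays were normalized is not given in the sources used here.

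Of 41345 probe sets, 23521 had 1 gene symbol in the platform annotation, 1814 several and 16010 none; 23328 matched RefSeq (GRCm38.p6). The probe set with the highest mean stood for each of 1082 genes that had several, leaving 22180 genes. The number of arrays limits the precision. Values became log2(intensity + 16) without further normalization or filter. No pair of arrays was identical, and 0 sample columns were left unused.

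All 36 arrays were fitted with 12 group means in limma 3.58.1 (R 4.3.3; lmFit, eBayes), with two-sided tests, Benjamini-Hochberg adjustment over all genes and a threshold of 0.05. Fits were repeated without WT ZT 12 replicate 3. The scripts were tested on simulated data. Groups not overlapping means all ZT 12 arrays above or below all ZT 8 arrays.

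The rule named the 12 largest rises and falls that passed both fits without overlap, predicted gene models left out (0 genes met it), all clock genes, the smallest p without the array in each other pathway list (4 genes at most), the 5 smallest p for the WT minus TB step, and Ttn, Ckm, Acta1, Alb and Ttr. Others were named after their values were seen. The comparison, the 22 pathway and 13 marker lists and the rule were chosen with earlier results of these data known. Alternatives tried were quantile normalization, a pseudocount of 1, centring on array medians, a filter on genes low in mean, the mean of probe sets, all probe sets, fewer groups in the fit, array sets, array weights, a variance trend, a replicate block and each array left out. Some items are not reported here.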

Additional observations from a re-analysis of the deposited data

Results flagged for a closer look

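Probe set 17307066 has no gene symbol in the annotation and lies outside the comparisons above. In a fit of all probe sets it rose by 1.05 ± 0.175 (SE) on the log2 scale from WT ZT 8 to WT ZT 12 (limma, adjusted p = 0.0206). It was at 6.92, 6.94 and 6.72 at ZT 8 and at 7.70, 8.25 and 7.77 at ZT 12, without overlap. Without WT ZT 12 replicate 3 the difference was 1.11 and the adjusted p by limma 0.097. What it measures is not given in the annotation used here.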

How the results depend on the processing

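The count of 7 genes past the threshold depended on the setting. It was 4 with a pseudocount of 1, 17 after quantile normalization, 18 without the third of genes lowest in mean, 24 with only the WT arrays in the fit, 36 with the array set as a block and 37 with array weights. With only the 6 arrays it was 0, with a smallest adjusted p of 0.104 by limma. With 1 array left out it ran from 0 to 16. Chosen after seeing the data, and each without WT ZT 12 replicate 3, array weights gave 32 genes, a variance trend with robust fitting 0, and the array set as a block 5: Cldn1, Cry1, Scrn1, Jag2 and Arhgef26. All 7 genes kept their sign in every setting tried. The WT minus TB step gave 0 genes in every setting.

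Replicate numbers did not pair the samples: deviations from the group means correlated at 0.157, -0.272 and -0.177 for numbers 1, 2 and 3. With the replicate number as a block 9 genes passed, the 7 among them.

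Signs turned for small differences. Tef was at 0.00 with the mean of probe sets, -0.10 in the larger array set, -0.01 with array weights, and 0.00 and -0.03 in the added fits with the set as a block and with weights. Clock was at 0.04 with the added set block and 0.02 with the added trend, and Ndufs3 at 0.02 after median centring. With 1 array left out the ranges were -0.12 to 0.19 for Tef, -0.12 to 0.02 for Clock, -0.39 to 0.01 for Cry2, -0.20 to 0.05 for Hlf, -0.02 to 0.43 for Acaca, -0.03 to 0.69 for Mvk, -0.02 to 0.63 for Cyp3a13, -0.07 to 0.25 for Atf3, -0.17 to 0.13 for Ndufs3, -0.01 to 0.19 for Cyc1 and -0.05 to 0.24 for Tbca. The cause was not tested. With 3 arrays per time, genes near 16 intensity units are the least precisely measured.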

Other observations

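With the array set as a block, further genes passed the test beyond the 7. Usp2 (0.94), Nampt (1.00), Tfrc (1.03), Tsc22d3 (1.27) and Lpin1 (1.55) were higher at ZT 12 in that fit, each with an adjusted p between 0.033 and 0.0487 by limma, as were Tcim (1.40) and C4a (1.51), with adjusted p of 0.033 and 0.0428. Casp6, an executioner caspase, fell by 0.96 (limma, adjusted p = 0.00462), and Sgk2, a kinase related to Sgk1, fell by 0.94 (adjusted p = 0.033). Hsd3b7 of bile acid synthesis fell by 0.83 and Cbs of transsulfuration fell by 0.72, both with adjusted p = 0.033 by limma. Without WT ZT 12 replicate 3 the adjusted p of these genes in the blocked fit lay between 0.0519 (Casp6 and Tcim) and 0.202 (Usp2), so none of them passed there.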
